A study of Homo sapiens with 6 samples.

Results

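The mature miRNAs described here are the 5p and 3p arms of 5 hairpins of the let-7 family, let-7b, let-7d, let-7g, let-7i and miR-98. They were taken by name from the table of miRNA counts, as 10 of its 1000 mature miRNAs, because each comes from 1 hairpin only and each of the 5 hairpins is on the study's list of group II precursors. The remaining let-7 arms in the table, 9 in number, belong to let-7a, let-7c, let-7e and let-7f. HEK 293T cells, an immortalized line from human embryonic kidney, were compared with a double knockout strain of the same line that lacks TENT3A and TENT3B, which are also called TUT4 and TUT7 (ΔTUT4/7). Each strain was sequenced in 3 libraries labelled as biological replicates, neither strain received a treatment, and the parental cells (WT) carry no alteration named in the labels. The sources used here do not say whether the ΔTUT4/7 strain is 1 clone, and the replicates may be separate cultures of 1 strain, so the p-values measure the spread between these libraries. The targeted genes themselves are not among the features of a mature miRNA table, and the strain labels rest on the submitters.

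The let-7 miRNAs are tumour suppressors that repress growth genes. Their 5p arm is the guide strand that is loaded into Argonaute, while the 3p arm is mostly discarded. TUT4 and TUT7 are terminal uridylyltransferases, enzymes that extend RNAs with U bases no template encodes. When the RNA-binding protein LIN28 sits on the terminal loop of a let-7 precursor, the enzymes add a uridine tail that marks the precursor for the exonuclease DIS3L2, and without LIN28 they add 1 uridine. Group II precursors leave Drosha with a 3′ overhang that is 1 nucleotide short, and the single added uridine restores the overhang that DICER prefers.

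The mature sequences are printed from RefSeq (GRCh38.p14) because the 5p arms share their target-recognition seed while the 3p arms do not. The seed, bases 2 to 8 from the 5′ end, is in capitals.

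hsa-let-7b-5p: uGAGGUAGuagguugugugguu

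hsa-let-7d-5p: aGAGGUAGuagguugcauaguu

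hsa-let-7g-5p: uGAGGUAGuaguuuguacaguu

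hsa-let-7i-5p: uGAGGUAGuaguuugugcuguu

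hsa-miR-98-5p: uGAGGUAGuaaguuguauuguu

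hsa-let-7b-3p: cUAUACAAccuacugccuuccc

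hsa-let-7d-3p: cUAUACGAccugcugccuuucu

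hsa-let-7g-3p: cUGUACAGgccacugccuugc

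hsa-let-7i-3p: cUGCGCAAgcuacugccuugcu

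hsa-miR-98-3p: cUAUACAAcuuacuacuuuccc

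All 5 of the 5p arms carried the seed GAGGUAG, and over their 22 bases they differed from each other at 2 to 6 positions. The closest were let-7g-5p and let-7i-5p, with the substitutions A17G and A19U (the let-7g base first, positions from the 5′ end), and the farthest let-7d-5p and let-7i-5p. Among the 3p arms, let-7b-3p and miR-98-3p shared the seed UAUACAA and the other 3 each had their own. The authors trimmed the reads to 18 nt, and over those bases none of the 10 arms was identical to another listed miRNA. The margin was small for the guide strands. Within 18 bases, let-7g-5p and let-7i-5p were 1 base apart (A17G), let-7b-5p was 1 base from let-7a-5p and let-7c-5p (G17A), miR-98-5p was 1 base from the same 2 (A11G), and let-7d-5p was 2 bases from them (A1U C16U). The 3p arms were 2 to 4 bases from their nearest neighbour. The number of mismatches that the alignment allowed is not stated in the sources used here, and the part of misassigned reads in the values below was not tested.

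The 5 hairpins lie on 5 chromosomes of hg38. The let-7b hairpin, chr22:46113686-46113768 on the plus strand, is in an exon of the lncRNA MIRLET7BHG. The let-7d hairpin, chr9:94178834-94178920 on the plus strand, is in an exon of the lncRNA MIRLET7A1HG. The let-7g hairpin, chr3:52268278-52268361 on the minus strand, is in an intron of WDR82. The let-7i hairpin, chr12:62603686-62603769 on the plus strand, is in an intron of MIRLET7IHG and in an exon of a second lncRNA. The miR-98 hairpin, chrX:53556223-53556341 on the minus strand, is in an intron of HUWE1. Hosts of these hairpins are thus lncRNAs in 3 cases and protein-coding genes in the other 2.

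LIN28 is known to contact let-7 precursors through the motif GGAG with its zinc knuckles and through GAU with its cold-shock domain, so the stretches between the mature arms of let-7b, let-7d, let-7g and let-7i are also printed, with GGAG and GAU in capitals.

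let-7b: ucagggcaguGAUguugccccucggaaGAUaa

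let-7d: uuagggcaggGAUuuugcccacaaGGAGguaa

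let-7g: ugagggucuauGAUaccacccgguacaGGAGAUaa

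let-7i: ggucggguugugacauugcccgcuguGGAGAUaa

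These 4 loops were 32 to 35 bases long. GGAG, searched on the sense strand only, was found in let-7d, let-7g and let-7i, each time 4 bases before the 3p arm, and not in let-7b. GAU was found in all 4 loops, 2 times in let-7b and let-7g and 1 time in let-7d and let-7i, and a copy in let-7g and the copy in let-7i overlapped GGAG. Of 739 human hairpins with both arms in RefSeq, 8.12% held GGAG and 19.8% held GAU between the arms, but most of these loops were shorter, with a median of 16 bases. Among the 11 hairpins with a loop of 32 to 35 bases, which include these 4, 5 held GGAG and 6 held GAU. Both motifs were also found in the rest of the family, where 5 of 6 hairpins of let-7a, let-7c, let-7e and let-7f with both arms in RefSeq held GGAG and 5 of 6 held GAU.

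The libraries held between 4338558 and 7967606 counts. Values are in CPM, the count of an arm scaled to the total of its library. All 10 arms are 21 or 22 nt long, and no length correction was made. Whether the library preparation captured different arms, or the same arm in both strains, equally well was not tested. CPM is a share of the counted miRNA, so a larger amount per cell and a smaller amount of all other miRNAs cannot be told apart. In the 3 WT libraries the count of hsa-miR-16-5p, the largest in the table, is deposited with 3 significant digits, and their totals are exact only to that rounding. Libraries of 1 strain differed by more than counting noise over all miRNAs, and the chi-square divided by its degrees of freedom was 13.6 to 56.3 between ΔTUT4/7 libraries and 101.0 to 301.2 between WT libraries. Intervals given below cover counting error only.

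All 10 arms increased in abundance in ΔTUT4/7 cells. The count model of edgeR (quasi-likelihood test, Benjamini-Hochberg adjusted over the 826 miRNAs with a highest count above 7) called an arm increased where its log2 fold change reached 1 and its adjusted p was under 0.05. It called 10 of 10 arms increased, against 16.5% of all tested miRNAs, and 0 of 10 decreased, against 13.6% of all. The median log2 fold change of the arms was 3.79, with a range of 2.27 to 5.36, beside a median of 0.013 over all tested miRNAs. In all 10 arms, every ΔTUT4/7 library lay above every WT library, which held for 28.8% of the tested miRNAs. The largest adjusted p of the 10 by edgeR was 2.22e-05. Of the 9 arms of the other let-7 members, 4 were increased and 0 decreased, with a median log2 fold change of 0.68. Every ΔTUT4/7 library lay above every WT library in 6 of these 9 arms and below in 2. The 4 increased arms come from let-7a and let-7f. The paper counts let-7f, and let-7a in part, as group II, so the 9 arms are not a contrast without group II hairpins.

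**Figure D1:**
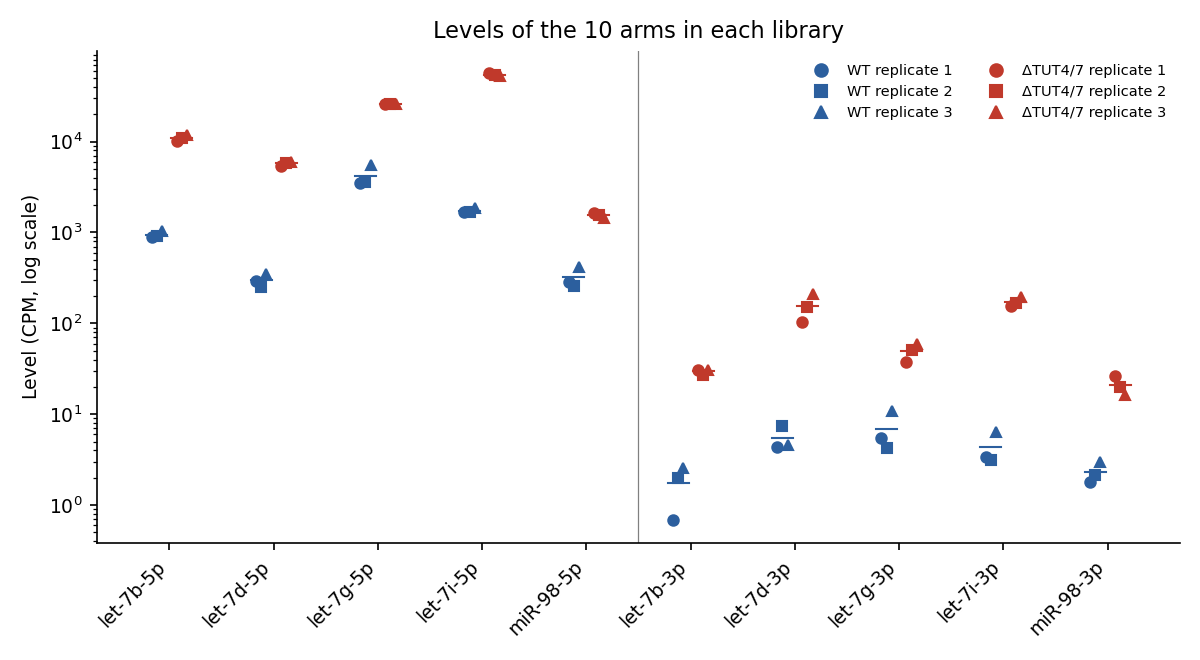
Level of each of the 10 arms in CPM (log axis) in each of the 6 libraries, 5p arms on the left and 3p arms on the right, with blue for WT, red for ΔTUT4/7, a symbol for each replicate and a line at the mean of each strain. The red points lie above the blue points of the same arm in all 10 arms, and let-7i-5p spans the widest gap among the 5p arms, from 1740.3 to 54673 CPM in the means.

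let-7i gave the largest increase of the 5 hairpins. hsa-let-7i-5p had 56723, 54038 and 53258 CPM in ΔTUT4/7 replicates 1, 2 and 3, and 1666, 1672 and 1883 CPM in WT replicates 1, 2 and 3. The strains lay far apart and each was tight, at 54673 ± 1817 and 1740.3 ± 124 CPM (SD, n = 3 each). The log2 fold change (log2FC) was 4.97 (standard error, SE, 0.12, edgeR adjusted p = 2.57e-11), or 31.4-fold, the smallest standard error of the 10. Each SE is the size of the log2FC divided by the square root of the F statistic of the edgeR test. It can be too small for arms with few counts. In the ΔTUT4/7 libraries let-7i-5p ranked 3 to 4 of the 1000 miRNAs, and in the WT libraries 61 to 62. Its passenger arm hsa-let-7i-3p rested on 785, 800 and 925 counts in ΔTUT4/7 and on 15, 25 and 28 counts in WT libraries. That is 155, 166 and 197 CPM against 3.40, 3.14 and 6.45 CPM, with WT replicate 3 the highest of its strain. The log2FC of let-7i-3p was 5.36 (SE 0.28, edgeR adjusted p = 2.28e-08), the largest of the 10 arms.

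let-7d rose from the lowest WT level of the 5 guide strands. hsa-let-7d-5p had 5388, 5829.9 and 6013 CPM in the ΔTUT4/7 libraries and 291, 248 and 352 CPM in the WT libraries. The means were 5744 ± 321 and 297 ± 52.4 CPM (SD, n = 3 each) and the log2FC was 4.27 (SE 0.17, edgeR adjusted p = 1.34e-09), or 19.3-fold. hsa-let-7d-3p was less even within the strains than its 5p arm. It had 102, 151 and 211 CPM in ΔTUT4/7 replicates 1, 2 and 3, from 520, 726 and 987 counts, and 4.31, 7.40 and 4.61 CPM in WT replicates 1, 2 and 3, from 19, 59 and 20 counts. ΔTUT4/7 replicate 3 held more than double the level of replicate 1, a gap larger than counting error, and WT replicate 2 was the highest of its strain. The log2FC of let-7d-3p was 4.77 (SE 0.32, edgeR adjusted p = 2.21e-07), or 27.4-fold.

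let-7b lay in the middle of the 5. hsa-let-7b-5p had 10188, 11036 and 11705 CPM in ΔTUT4/7 libraries and 886, 919 and 1028 CPM in WT libraries. With means of 10976 ± 760 and 944 ± 74.3 CPM (SD, n = 3 each), the log2FC was 3.54 (SE 0.13, edgeR adjusted p = 1.03e-09), or 11.6-fold. The coefficient of variation of let-7b-5p in ΔTUT4/7 cells was 6.92%, the largest of the 5 guide strands there. Its passenger arm rested on few counts in WT cells. hsa-let-7b-3p had 157, 131 and 143 counts in ΔTUT4/7 and 3, 16 and 11 counts in WT libraries, or 30.9, 27.2 and 30.5 CPM against 0.680, 2.01 and 2.54 CPM. WT replicate 1, with its 3 counts, was the lowest. The log2FC of let-7b-3p was 4.04 (SE 0.32, edgeR adjusted p = 9.4e-07), and it was 3.72 to 4.28 with each library left out in turn.

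let-7g was the most abundant of the 5 guide strands in WT cells and gained less. hsa-let-7g-5p had 26195, 26073 and 25935 CPM in ΔTUT4/7 libraries, a coefficient of variation of only 0.50%. In WT libraries it had 3506, 3580.5 and 5553 CPM, a coefficient of variation of 27.6%, and replicate 3 stood above the other 2. The log2FC of let-7g-5p was 2.63 (SE 0.17, edgeR adjusted p = 1.94e-07), or 6.19-fold, and it was 2.51 to 2.88 with each library left out, the highest without WT replicate 3. hsa-let-7g-3p had 37.6, 50.7 and 59.9 CPM in ΔTUT4/7 libraries, from 191, 244 and 281 counts, and 5.44, 4.27 and 10.8 CPM in WT libraries, from 24, 34 and 47 counts. WT replicate 3 was again the highest. The log2FC of let-7g-3p was 2.89 (SE 0.33, edgeR adjusted p = 2.22e-05), or 7.43-fold, and 2.60 to 3.37 with each library left out.

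miR-98 gained least among the guide strands. hsa-miR-98-5p had 1619.7, 1539.9 and 1457 CPM in ΔTUT4/7 libraries and 284, 256 and 420.2 CPM in WT libraries. The gap between the strains exceeded the spread within them, although WT replicate 3 was well above the other WT libraries, and the log2FC was 2.27 (SE 0.19, edgeR adjusted p = 1.65e-06), or 4.81-fold. Without WT replicate 3 it was 2.51, and the lowest value with a library left out was 2.13. hsa-miR-98-3p rested on 133, 96 and 77 counts in ΔTUT4/7 and 8, 17 and 13 counts in WT libraries, or 26.2, 20.0 and 16.4 CPM against 1.81, 2.13 and 3.00 CPM. Its log2FC of 3.18 (SE 0.30, edgeR adjusted p = 4.41e-06), or 9.04-fold, lay 0.91 above that of miR-98-5p, the widest gap between the arms of a hairpin among the 5. With limma-trend on log2(CPM + 1) that gap was 0.42.

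**Figure D2:**
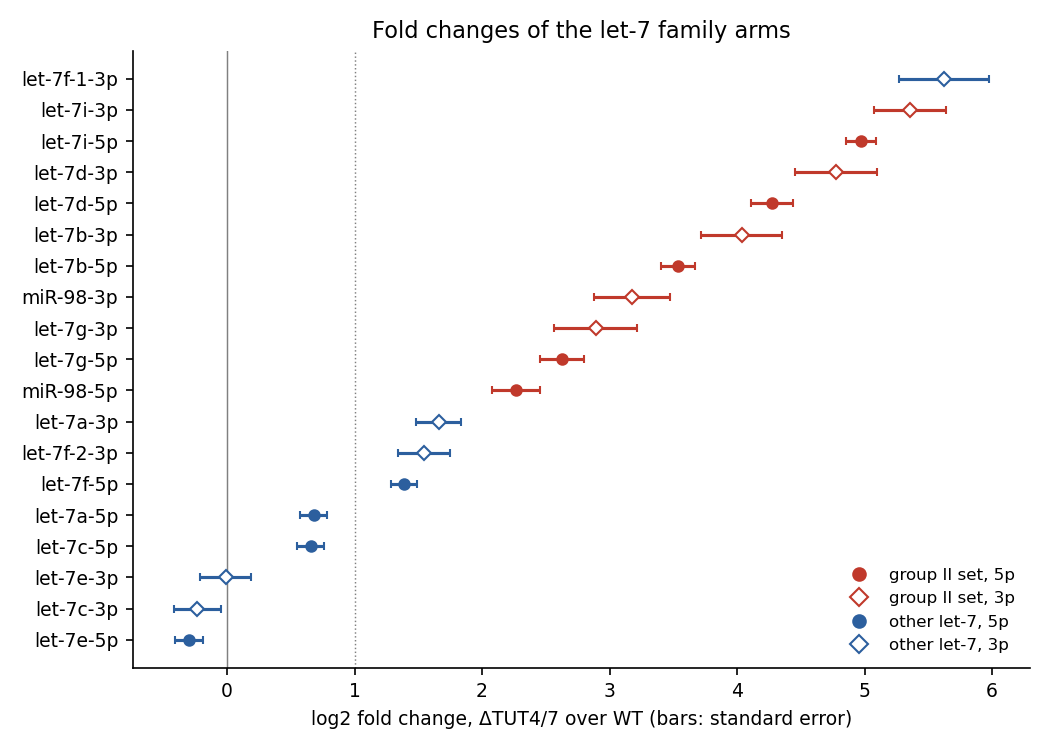
Log2 fold change of ΔTUT4/7 over WT for the 19 let-7 and miR-98 arms, with a dotted line at the limit of 1. Filled circles are 5p arms and open diamonds are 3p arms. Bars reach 1 standard error to each side, derived from the F statistic of the edgeR test. The 10 red arms of let-7b, let-7d, let-7g, let-7i and miR-98 span 2.27 to 5.36, and of the 9 blue arms of the other members 1, let-7f-1-3p at 5.62, lies above 2.27.

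The spread within a strain differed between the strains and with abundance. Across the 5 guide strands, the coefficient of variation was 0.50% to 6.92% in ΔTUT4/7 and 7.10% to 27.6% in WT libraries, and for each of the 5 it was larger in WT. WT replicate 3 held the highest WT level of all 5 guide strands, by the widest margins for let-7g-5p and miR-98-5p. Divided by its degrees of freedom, the chi-square among the WT libraries was 1578 for let-7g-5p and 128 for miR-98-5p, against 26.6 for let-7b-5p and 42.2 for let-7i-5p. The 3p arms had larger standard errors, with a median of 0.32 on the log2 scale against 0.17 for the 5p arms, and their counts in WT cells summed to 30 for let-7b-3p up to 105 for let-7g-3p over the 3 libraries.

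The order of the guide strands changed between the strains. In WT cells the means ran from let-7g-5p over let-7i-5p and let-7b-5p to miR-98-5p and let-7d-5p, and the last 2 overlapped in their ranges. In ΔTUT4/7 cells the order was let-7i-5p, let-7g-5p, let-7b-5p, let-7d-5p and miR-98-5p, with no overlap between neighbours. Within the whole family, let-7i-5p moved from place 6 of 9 guide strands in WT to place 1 in ΔTUT4/7, let-7g-5p from 5 to 3, let-7b-5p from 7 to 6, let-7d-5p from 9 to 8, and miR-98-5p from 8 to 9. All 10 pairs of the 5 guide strands were compared by their log2 ratio in each library, a measure that no library scaling changes. In 10 of 10 pairs the ratios of the strains did not overlap, each with p = 0.1 in an exact 2-sided permutation test, the smallest p that 3 libraries against 3 allow. The 10 pairs are built from 5 arms and are not independent results. How often pairs of other miRNAs separate in this way was not computed. The ratio of let-7g-5p to let-7i-5p turned, from a log2 value of 1.24 ± 0.27 in WT to -1.07 ± 0.041 in ΔTUT4/7 cells (SD, n = 3 each), a difference of -2.31. The largest difference was that of let-7i-5p to miR-98-5p, at 2.68, and the smallest that of let-7g-5p to miR-98-5p, at 0.36. Hence let-7g-5p and miR-98-5p changed most nearly alike, and let-7d-5p and let-7i-5p differed by 0.69.

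The let-7 pool was taken as the summed counts of all let-7 and miR-98 arms in the table. The 10 arms made up 51.1%, 51.5% and 51.2% of the pool in ΔTUT4/7 replicates 1, 2 and 3, and 11.9%, 11.6% and 14.6% in WT replicates 1, 2 and 3. Their share thus went from 12.7% ± 1.64 in WT to 51.3% ± 0.22 in ΔTUT4/7 cells (SD, n = 3 each), a difference of 38.6 percentage points with no overlap. let-7a-5p and let-7c-5p, whose reads cannot be told apart over 18 nt, belong to the pool, and without them the share was 22.3% ± 2.58 in WT and 64.8% ± 0.66 in ΔTUT4/7 cells (SD, n = 3 each). As a share of all counts, they took 9.94% ± 0.090 of a ΔTUT4/7 library and 0.754% ± 0.15 of a WT library (SD, n = 3 each). Over the same libraries the other let-7 arms took 9.45% ± 0.15 and 5.15% ± 0.26. In pool terms, let-7i-5p went from 2.95% to 28.2%, let-7g-5p from 7.07% to 13.4%, let-7b-5p from 1.60% to 5.66%, let-7d-5p from 0.502% to 2.96% and miR-98-5p from 0.538% to 0.793%. The strains did not overlap for any of these 5 shares, and miR-98-5p came closest, with 0.661% in WT replicate 3 and 0.755% in ΔTUT4/7 replicate 3. Nor did they overlap for let-7a-5p, let-7c-5p, let-7e-5p and let-7f-5p, whose shares all fell, that of let-7f-5p from 30.7% to 24.4%. Shares of 1 pool depend on each other, so the lack of overlap is not particular to the 5. The 5 passenger arms together were 0.0347% of the pool in WT and 0.221% in ΔTUT4/7 cells.

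**Figure D3:**
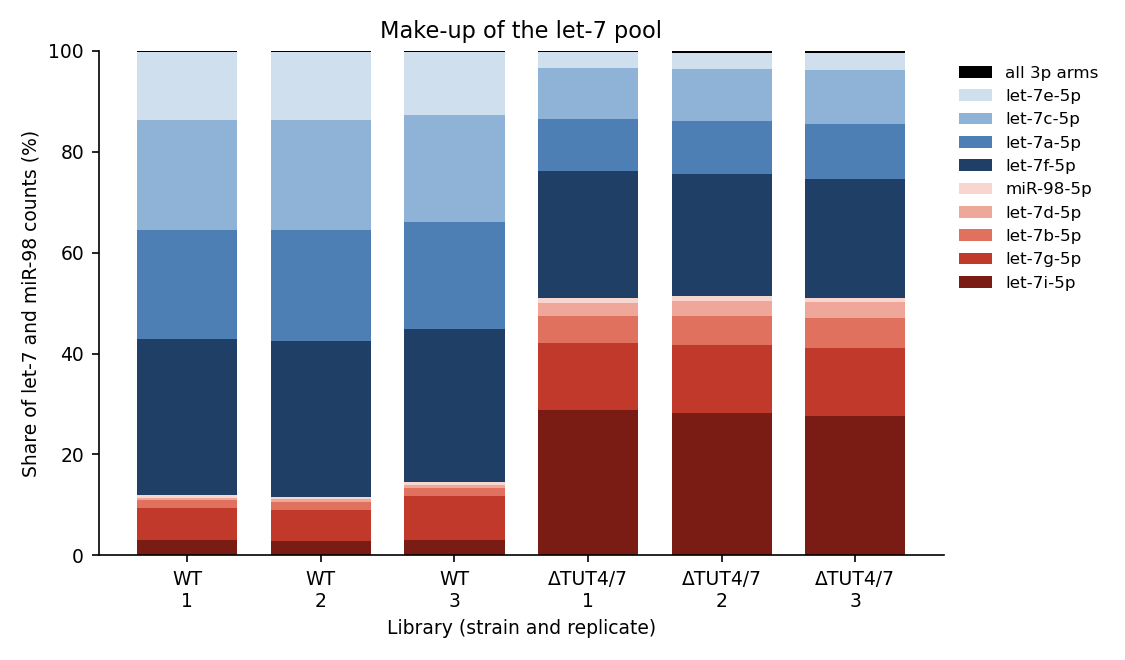
Make-up of the let-7 pool in each of the 6 libraries, as the percent of all let-7 and miR-98 counts, with red shades for the 5 guide strands described here, blue shades for the other guide strands and black for all 3p arms. The red part reaches 11.6% to 14.6% in the WT libraries and 51.1% to 51.5% in the ΔTUT4/7 libraries, and its largest band is let-7g-5p in WT and let-7i-5p in ΔTUT4/7 libraries.

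The mean CPM of the pool was 134886 higher in ΔTUT4/7 than in WT cells, and the 10 arms held 68.1% of that difference. let-7i-5p alone held 39.2%, let-7g-5p 16.2%, let-7b-5p 7.44%, let-7d-5p 4.04% and miR-98-5p 0.904%. let-7d-5p, from its low WT level, thus held a small part of the gain, although its fold change was the second largest of the guide strands. Set only against each other, the 5 guide strands were 55.5% let-7g-5p and 23.5% let-7i-5p in WT, and 26.3% let-7g-5p and 55.2% let-7i-5p in ΔTUT4/7 cells. miR-98-5p went from 4.22% to 1.55% and let-7d-5p from 3.97% to 5.80% of the 5, both without overlap of the strains. let-7b-5p was 12.7% ± 1.42 in WT and 11.1% ± 0.87 in ΔTUT4/7 cells (SD, n = 3 each), with overlapping libraries (exact 2-sided permutation test, p = 0.3).

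The guide strand outnumbered the passenger strand in every library and hairpin, by 28.6 to 1302 counts of 5p per count of 3p. The 5p to 3p ratio in ΔTUT4/7 replicates 1, 2 and 3 and WT replicates 1, 2 and 3 was compared on the log2 scale for the 5 hairpins, by an exact 2-sided permutation test that cannot go below p = 0.1. For miR-98 it was 61.8, 77.1 and 88.7 in ΔTUT4/7 and 156.5, 120.1 and 140.2 in WT libraries. The ratios of the strains did not overlap, and the ratio was 1.84-fold lower in ΔTUT4/7 cells (log2 difference -0.88, exact permutation p = 0.1). Their 95% Clopper-Pearson intervals did overlap, as with 70.9 to 112.6 in ΔTUT4/7 replicate 3 and 74.8 to 206.5 in WT replicate 2. For let-7b it was 329, 405 and 384 in ΔTUT4/7 and 1302, 458 and 405 in WT libraries. The nearest libraries of the strains were almost equal, at 405.2 and 405.4, and the ratio of 1302 rested on 3 counts of let-7b-3p, with a 95% Clopper-Pearson interval of 445 to 6318. The log2 difference for let-7b was -0.75 (exact permutation p = 0.1) and -0.21 without WT replicate 1. After Benjamini-Hochberg adjustment over the 5 hairpins, the exact permutation p was 0.25 for miR-98 and let-7b. It was 0.375 for let-7d and let-7i and 0.5 for let-7g.

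In the other 3 hairpins the strains overlapped. For let-7d the ratio was 52.6, 38.6 and 28.6 in ΔTUT4/7 and 67.6, 33.5 and 76.5 in WT libraries, a log2 difference of -0.53 (exact permutation p = 0.3). It was -0.30 without WT replicate 3, -0.31 without ΔTUT4/7 replicate 3 and -0.89 without WT replicate 2. The 95% intervals of the 3 ΔTUT4/7 libraries, 48.2 to 57.4, 35.9 to 41.6 and 26.8 to 30.5, did not overlap each other, so the libraries of 1 strain differed by more than counting error. For let-7i it was 367, 325 and 270.0 in ΔTUT4/7 and 490, 533 and 292 in WT libraries, a log2 difference of -0.41 (exact permutation p = 0.3), and it was -0.25 without WT replicate 2 and -0.68 without WT replicate 3. For let-7g it was 696, 514 and 433 in ΔTUT4/7 and 645, 839 and 513 in WT libraries, a log2 difference of -0.28 (exact permutation p = 0.5). It was -0.098 without WT replicate 2, -0.12 without ΔTUT4/7 replicate 3, -0.45 without WT replicate 3 and -0.47 without ΔTUT4/7 replicate 1. The mean log2 ratio was lower in ΔTUT4/7 cells for all 5 hairpins, and the fitted log2FC of the 3p arm exceeded that of the 5p arm by 0.26 to 0.91. With limma-trend on log2(CPM + 1), a scale that understates the change of low arms, the excess was 0.0067 for let-7b, 0.29 for let-7d, 0.086 for let-7g, 0.098 for let-7i and 0.42 for miR-98. By edgeR, the 3p arm also had the larger log2FC for let-7a (1.66 against 0.68) and let-7e (-0.010 against -0.30). For let-7f, both 3p arms (5.62 and 1.54) exceeded let-7f-5p (1.39). let-7c went the other way (-0.23 against 0.66), and the share over all hairpins was not computed. The trimmed reads of let-7a-5p and let-7c-5p cannot be told apart, so 0.68 and 0.66 cannot be assigned to either member. The comparisons for let-7a and let-7c therefore do not set a 3p arm against the 5p arm of its own hairpin alone. The differences between the strains were small beside the differences between hairpins, since in ΔTUT4/7 cells the median ratio was 38.6 for let-7d and 514 for let-7g. With counts summed over the 5 hairpins, the ratio was 284, 237 and 191 in ΔTUT4/7 and 424, 352 and 337 in WT libraries. This sum takes most of its 5p counts from let-7i and let-7g. let-7d, with few 5p counts, gave the most 3p counts in ΔTUT4/7 replicate 3 (987) and WT replicate 2 (59). In the other libraries the most 3p counts came from let-7i in ΔTUT4/7 replicates 1 and 2 (785 and 800). They came from let-7g in WT replicates 1 and 3 (24 and 47).

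**Figure D4:**
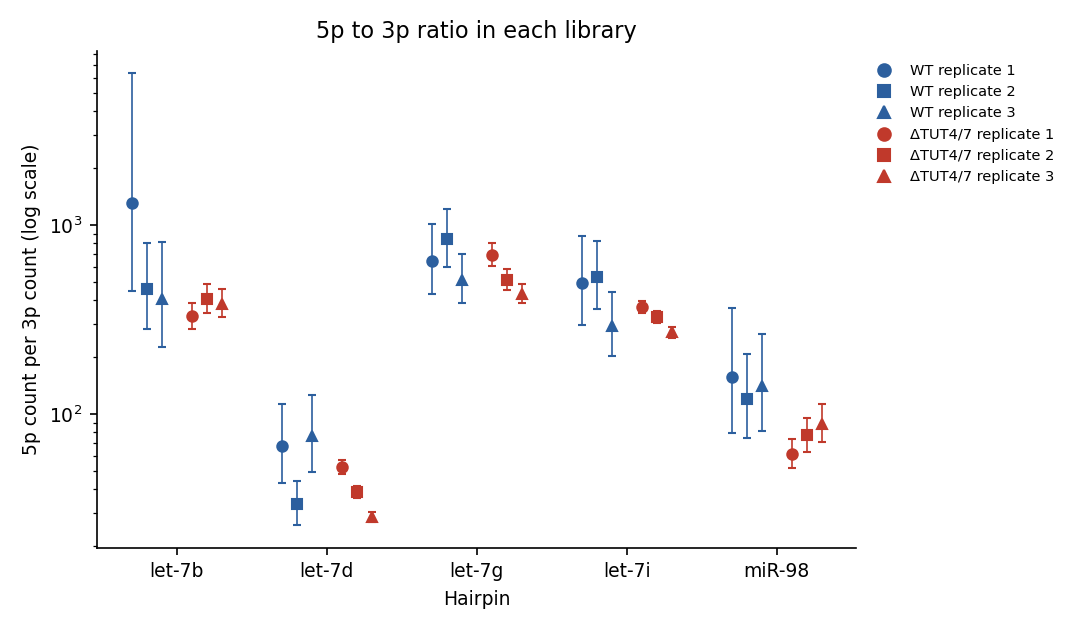
Ratio of 5p to 3p counts for each of the 5 hairpins in each library (log axis), blue for WT and red for ΔTUT4/7, with a symbol for each replicate and 95% Clopper-Pearson intervals that cover counting error only. The ratios of the strains overlap for let-7d, let-7g and let-7i, touch near 405 for let-7b, and are apart for miR-98, where the intervals still overlap. The WT intervals are wider because the 3p counts there are 3 to 59.

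Some of the hairpins have neighbours that are let-7 hairpins themselves. On the same strand and within 10000 bases, let-7d lies 2400 bases from let-7f-1 and 2797 bases from let-7a-1, let-7b lies 863 bases from let-7a-3, and miR-98 lies 850 bases from let-7f-2. let-7g and let-7i have no such neighbour. The neighbour arm that comes from a single hairpin next to let-7d, hsa-let-7f-1-3p, had 100, 119 and 99 counts in ΔTUT4/7 and 1, 3 and 3 counts in WT libraries. Its log2FC of 5.62 (SE 0.35, edgeR adjusted p = 1.31e-07) stood beside 4.77 for let-7d-3p. With 7 counts of let-7f-1-3p in the WT libraries together, that SE may be too small. With limma-trend on log2(CPM + 1) the order turned, with 4.004 for let-7f-1-3p and 4.57 for let-7d-3p. Next to miR-98, hsa-let-7f-2-3p had a log2FC of 1.54 (SE 0.21, edgeR adjusted p = 1.04e-04), beside 3.18 for miR-98-3p. The differences between these neighbours were not tested. The guide strands let-7f-5p, at 1.39, and let-7a-5p, at 0.68, come from 2 and 3 hairpins, and let-7a-3p, at 1.66, from 2, so their values cannot be assigned to 1 cluster. miR-4763, 28 bases from let-7b, was listed with its 5p arm but its counts were too low to be tested.

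Outside the family, 1 listed miRNA had the same seed as the 5 guide strands. This was hsa-miR-4458, with 11.6 to 16.4 CPM in ΔTUT4/7 and 14.8 to 26.3 CPM in WT libraries. The strains overlapped, and its log2FC was -0.49 (SE 0.25, edgeR adjusted p = 0.131). The seed that the 5 guide strands share was thus carried by a miRNA without a detectable increase as well.

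The miRNAs whose profile was most like the mean of the 5 guide strands were found among 372 miRNAs outside the family with a mean above 10 CPM, by the root mean square distance between centred log2(CPM + 1) values over the 6 libraries. The nearest were hsa-miR-5682, at a distance of 0.19, and hsa-miR-6765-3p, at 0.40. hsa-miR-651-5p, hsa-miR-887-3p and hsa-miR-129-5p followed at 0.53, 0.56 and 0.67. For scale, let-7b-5p itself was at 0.096 from that mean and let-7i-5p at 0.72. The level of miR-5682 was 25.3 ± 3.35 CPM in ΔTUT4/7 and 1.09 ± 0.31 CPM in WT cells (SD, n = 3 each) and its log2FC 4.58 (SE 0.30). The other 4 had log2FCs of 2.27 to 4.87, and all 5 lay at far lower levels than the guide strands, at 18.7 to 127 CPM in ΔTUT4/7 cells.

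Group II precursors outside the family were counted as well. The study's list holds 45 hairpins, of which 36 are outside let-7 and miR-98, and 43 of their arms were tested. Of these, 6 were increased and 9 decreased by edgeR at the same limits, beside 16.5% increased and 13.6% decreased over all tested miRNAs, and their median log2FC was -0.41, beside 3.79 for the 10 arms described here. Their values ranged from -2.51 to 2.88.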

How the data were processed

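The authors prepared 3 small RNA libraries of each strain, ΔTUT4/7 and WT, with the QIAseq miRNA Library Kit and sequenced them on an Illumina NextSeq. Reads were cut by the authors to 18 nt and aligned with Bowtie 1.0.0 to hg38, and they annotated mature miRBase miRNAs in Partek 10.0.22, versions and build per the submitters' processing notes. The values the authors deposited are estimated counts, all of them whole numbers. The sources used here do not say whether unique molecular identifiers were collapsed. The authors' comparison table (p-values, FDR, ratios, signed fold changes and least squares means) was not used.

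Strains were taken from the sample titles. Counts were tested with edgeR 4.0.16 in R 4.3.3 (estimateDisp, glmQLFit, glmQLFTest), with the total count as library size and factors of 1, over the 826 of 1000 miRNAs with a highest count above 7, with Benjamini-Hochberg adjustment over all of them. The fit was tested on simulated counts. Shares and log2 ratios used exact permutation tests over libraries. Mature sequences came from RefSeq (GRCh38.p14), matched by name for 897 of the 1000 miRNAs, all 897 with the same bases in hg38 at the file's coordinates, and gene overlaps from GENCODE release 44. Python 3.11.15, pandas 2.3.3, numpy 2.4.6, scipy 1.17.1 and matplotlib 3.10.9 were used.

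The miRNAs named are the 10 arms, let-7 arms whose hairpin lies within 10000 bases of one of theirs, miRNAs with the same seed, and the 5 nearest profiles outside the family. The members, lists, tests and alternatives were chosen with earlier results of these data known. Alternatives were DESeq2 1.42.0, limma-trend from limma 3.58.1 with 1 added to CPM, TMM or RLE factors, totals that exclude the let-7 family, all rows without a filter, filterByExpr, a replicate block, each library left out, other pools and 1 count added to each arm. The loop of 1 of the hairpins is not reported here.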

Additional observations from a re-analysis of the deposited data

How the results depend on the processing

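The 10 arms stayed increased in all 14 alternatives, the other let-7 arms stayed at 4 increased, and the log2 fold changes of the 10 arms kept their direction and their side of the limits in each of the 140 values. Totals that exclude the let-7 family and miR-98 took the median log2 fold change of the 10 arms from 3.79 to 4.01, and that of the 826 tested miRNAs from 0.013 to 0.23. The lowest value of any of the 10 arms was 2.13, for miR-98-5p without WT replicate 2. With the replicate number as a block, 10 arms were increased and their median was 3.80. No pairing by number was seen, though so few libraries cannot exclude one. Same-numbered libraries of the strains correlated at -0.17, -0.16 and -0.25 in their deviations over 391 miRNAs, and no library correlated best with its own number. The paired sign-flip tests of the 5p to 3p ratios gave exact p of 0.25 to 0.5, and with 3 pairs they cannot go below 0.25. The difference in the share of the pool was 42.5 percentage points in place of 38.6 when let-7a-5p and let-7c-5p, which share their first 18 nt, were left out of the pool, and 38.0 to 39.5 with each library left out. Among the other let-7 arms, let-7e-3p, at -0.010 and not called, turned to 0.029 with TMM factors and 0.21 with totals that exclude the family, and was -0.097 to 0.082 with each library left out. With 1 count added to each arm, the 5p to 3p difference of let-7b was -0.55 and its strains overlapped (exact permutation p = 0.3), and with each library left out it was -1.06 to -0.21. The 3p arms had 3 to 59 counts per WT library, and with 3 libraries a strain no single value can pass p = 0.1 in an exact permutation test.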
